A study of Mus musculus with 20 samples.

Results

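The question addressed here was whether mouse hearts that carry the fat-1 transgene responded to ischemia-reperfusion (IR) differently from wild-type hearts at the level of gene expression. All 20 hearts of the series entered the comparison, as a design of 2 genotypes by 2 perfusion conditions with 5 hearts in each group. For every gene, the interaction was the log2 change from Fat1-Con to Fat1-IR minus the log2 change from WT-Con to WT-IR. It was computed on log2(FPKM + 0.1), where FPKM is the deposited count of fragments divided by exon length and library size. Of the 31874 genes in the table, 18219 averaged 0.1 FPKM or more and were tested, while 13655 were below that level. A positive interaction means that the gene went up more, or down less, with IR in fat-1 hearts. A value of 1 corresponds to a doubling of the ratio between the responses.

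WT-Con were hearts of C57BL/6J mice and Fat1-Con hearts of fat-1 transgenic mice, isolated and perfused on a Langendorff apparatus for 120 min without ischemia. WT-IR and Fat1-IR were hearts of the same genotypes that had 40 min of equilibration, 20 min of ischemia and 1 h of reperfusion. The mice were 3 months old, and total RNA came from ventricular tissue, so every heart had been cut off from the circulation and perfused with buffer. The sources used here do not give the promoter that drives the transgene or say whether the WT mice were littermates. The transgene is a Caenorhabditis elegans gene and is not among the mouse genes of the table, so the genotype of a heart was taken from its label alone.

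The fat-1 gene encodes a fatty acid desaturase that mammals lack and that converts n-6 into n-3 polyunsaturated fatty acids, so fat-1 tissues contain more n-3 fatty acids without a change of diet. Reperfusion of a heart after ischemia brings oxidant stress, calcium overload and misfolded proteins. Misfolded proteins release the transcription factor HSF1, which binds inverted repeats of the unit GAA, called heat shock elements, and induces genes for chaperones. These include the HSP70, HSP90 and small heat shock proteins, and their co-chaperones of the DNAJ and BAG families.

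A heart had 15626847 to 25993336 assigned fragments. Markers of cardiomyocytes were high in all 20 hearts, with Myh6, the main myosin heavy chain of the adult mouse heart, at 2010 to 3944 FPKM. A few libraries stood apart from their groups. Mitochondrially encoded transcripts took 13.9% of the fragments of Fat1-IR 1 and 15.1% of those of WT-Con 5, against 28.4% to 39.3% in the other 18 hearts. The summed FPKM of 16 lymphocyte markers was 177 in Fat1-IR 4 and at most 10.4 in the other Fat1-IR hearts, and Cd3e, a subunit of the T cell receptor complex, was 8.18 FPKM there and at most 0.0765 FPKM in the 19 others. WT-Con and Fat1-IR enter the interaction with the same sign, so a gene that is high in WT-Con 5 and in Fat1-IR 1 gains from both. WT-IR 4 and WT-IR 5 had the lowest heat-inducible chaperones of their group. Results that rest on these hearts are given with and without the 3 hearts Fat1-IR 1, Fat1-IR 4 and WT-Con 5, and with and without the WT-IR pair. The labels call the hearts of a group independent samples, so p-values measure the spread between hearts. In RNA from whole ventricle, fewer cells of a type and less RNA per cell cannot be told apart.

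With limma across all genes, 1 of 18219 genes (0.00549%) passed an adjusted p under 0.05 with a fold over 1.5, and it had a positive interaction. This gene was Nle1, and the next smallest adjusted p was 0.276. At an unadjusted p under 0.05 there were 968 genes, 5.31% of those tested, of which 491 (2.69%) had a positive and 477 (2.62%) a negative interaction. The split by direction depended on the scaling, with 597 positive and 224 negative genes for FPKM rescaled to TPM and 236 and 1180 for FPKM scaled to nuclear-encoded fragments, and it was 316 and 1049 without the 3 hearts. An even spread of p-values would give 911 genes. At an unadjusted p under 0.01 there were 190 genes where 182 would come from an even spread, and at an unadjusted p under 0.001 there were 20 where 18.2 would. These counts were close to those of an even spread, while responses to IR themselves were called for 583 genes (3.20%) in WT hearts, 2.01% upward and 1.19% downward, and for 364 genes (2.0%) in fat-1 hearts, 1.30% upward and 0.703% downward. The 2 responses do not share hearts, but each shares its hearts with the interaction.

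**Figure D1:**
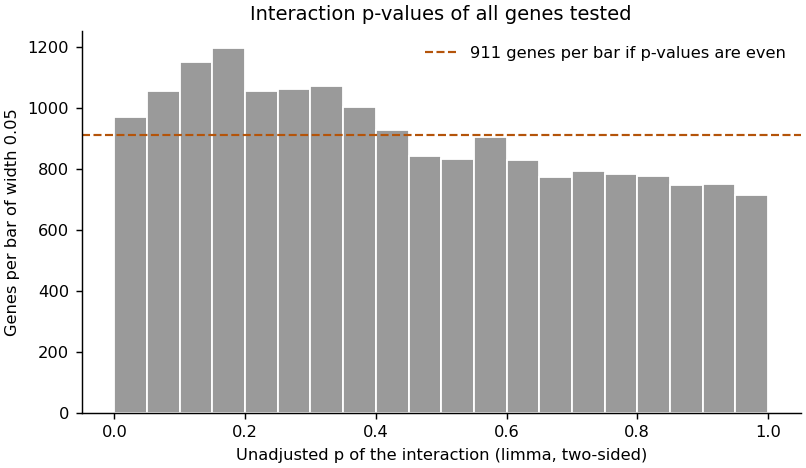
Number of genes (y axis) in each interval of the unadjusted interaction p from limma (x axis, 20 intervals of width 0.05) for the 18219 genes tested. The lowest interval holds 968 genes, close to the dashed line at 911 for even p-values, and the other intervals hold between 714 and 1196 genes.

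The interval of lowest p-values was not the fullest of the 20, since the others held between 714 and 1196 genes. The median standard error of an interaction was 0.32 on the log2 scale.

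The 968 genes with an unadjusted p under 0.05 were sorted by the signs and sizes of their responses. In 104 of them (0.571% of the genes tested) the response had the same sign in both genotypes and was larger in fat-1 hearts, upward for 82 and downward for 22. In 195 (1.07%) it had the same sign and was smaller in fat-1 hearts, upward for 135 and downward for 60. In 669 (3.67%) the responses had opposite signs, with the fat-1 response upward for 348, downward for 320 and at 0 for the remaining 1. Of the 669, 39 were called for IR in either genotype, beside 760 of all 18219 genes tested. The classes rest on point estimates and were not tested against each other.

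Of the 791 genes (4.34%) called for the response to IR averaged over the genotypes, 125 had an unadjusted interaction p under 0.05. That is 15.8%, against 5.31% of all genes tested. Their response was larger in fat-1 hearts for 53 and smaller for 72. The averaged response and the interaction come from the same hearts and use the same estimate of spread for each gene. A gene with a low estimate is thus favoured in both. Genes also vary together across the hearts, so the share is given without a test.

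**Figure D2:**
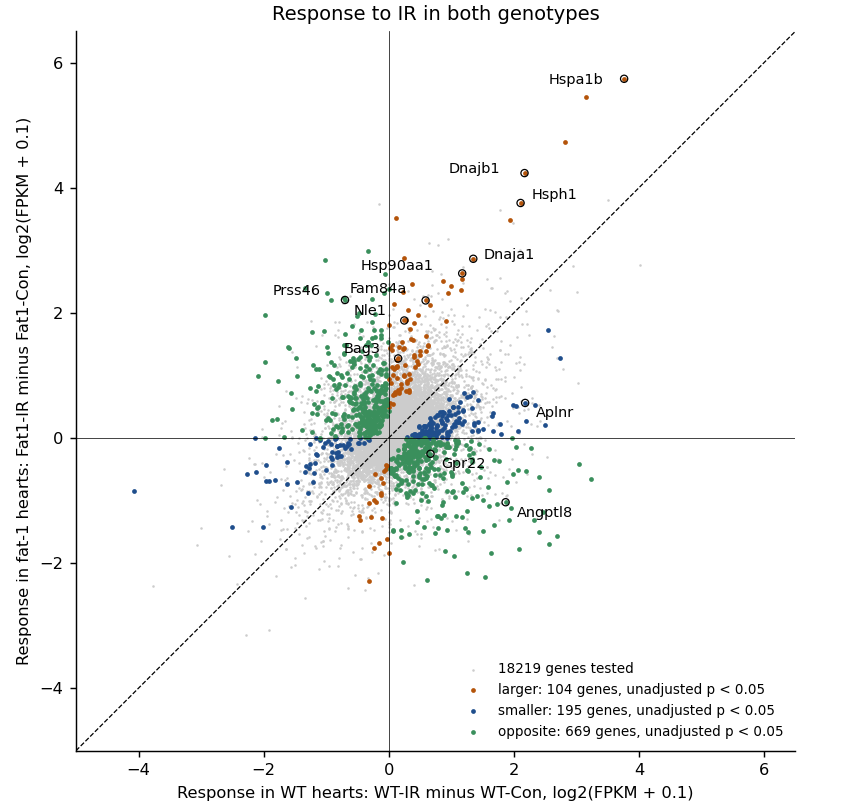
Response to IR in WT hearts (x axis) and in fat-1 hearts (y axis), each as a difference of log2(FPKM + 0.1), for 18219 genes. Coloured points are genes with an unadjusted interaction p under 0.05 (104 larger, 195 smaller, 669 opposite), and on the dashed line the responses are equal. The heat-inducible chaperones Hspa1b, Dnajb1, Hsph1, Dnaja1 and Hsp90aa1 lie above the line at the upper right, and Aplnr and Gpr22 lie below it.

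Nle1 (chr11:82900768-82908411, minus strand, GRCm38) encodes a WD-repeat protein that acts in the assembly of the large ribosomal subunit. Its FPKM was 1.84, 1.46, 2.5, 2.38 and 2.41 in the WT-Con hearts and 2.7, 2.7, 3.27, 1.93 and 2.06 in the WT-IR hearts. It was 1.8, 1.64, 1.45, 1.73 and 1.8 in the Fat1-Con hearts and 6.17, 7.73, 5.67, 7.0 and 5.82 in the Fat1-IR hearts. All 5 Fat1-IR hearts were above each of the other 15, while the WT-Con and WT-IR hearts overlapped, as did the WT-Con and Fat1-Con hearts. The response was 0.25 (SE 0.16) in WT hearts and 1.88 (SE 0.16) in fat-1 hearts, and the interaction was 1.63 (SE 0.22, limma adjusted p = 0.00976). The highest Nle1 was in Fat1-IR 2, which was not among the hearts that stand apart. The interaction was 1.56 without Fat1-IR 1, Fat1-IR 4 and WT-Con 5 and 1.43 without WT-IR 4 and WT-IR 5, although the adjusted p of limma was then 0.122 and 0.0813 with fewer hearts in the fit. It was also 0.113 with FPKM scaled to nuclear-encoded fragments.

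Nle1 lies head to head with Unc45b, which encodes a co-chaperone of HSP90 for myosin, and their annotated starts are 2139 bp apart. Unc45b was 31.5, 34, 34.8, 38.9 and 27 FPKM in WT-IR and 73.3, 45.6, 38.5, 56.2 and 38.3 FPKM in Fat1-IR hearts. Its groups overlapped after IR, and its interaction of 0.56 (limma, unadjusted p = 0.0144) was 0.23 without the 3 hearts. At its other end Nle1 overlaps Fndc8 by 34 bp on the opposite strand, and Fndc8 was below the level of expression needed for testing. Of 38 genes of ribosome biogenesis tested, Nle1 and Ltv1, a factor of small-subunit assembly, had an unadjusted p under 0.05. That is 5.26% of the list, close to the 5.31% of all genes tested. The median interaction of the 38 genes was 0.30 with all hearts and 0.01 without the 3 hearts. For Ltv1 the interaction was 0.46, with 7.06 to 8.53 FPKM in WT-IR and 7.34 to 13.3 FPKM in Fat1-IR hearts.

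**Figure D3:**
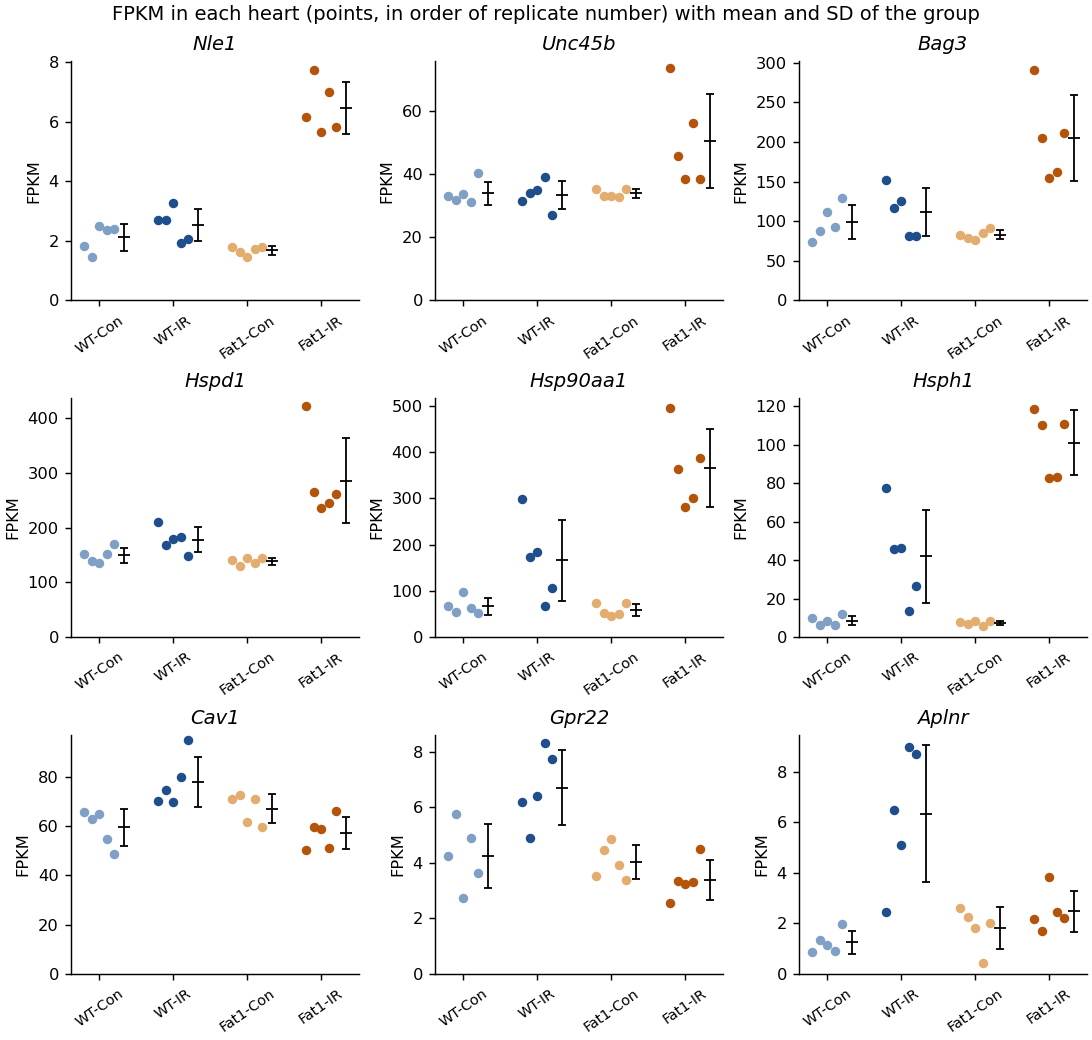
FPKM (y axes, from 0) of 9 genes in each of the 20 hearts, by group (x axes), with the mean and SD of each group as a bar beside the points. The 5 Fat1-IR hearts of Nle1 lie between 5.67 and 7.73 FPKM, above all others. Those of Cav1 and Gpr22 lie below all WT-IR hearts.

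Because genes of chaperones and their co-chaperones made up 6 of the 12 genes with the smallest p for a positive interaction, stretches before the starts of chaperone genes are shown, from the RefSeq promoter table of GRCm38.p6. Capitals mark a heat shock element of 2 units, GAANNTTC or TTCNNGAA. Hspe1 and Hspa1b are not among the 12 and were chosen because their stretches hold the element, while of the 12, Ahsa2 held none and Bag3 held 1, with its first base 42 bases after the start. The elements of Hspe1 also lie in a promoter of Hspd1, which is among the 12 and is read in the opposite direction. The stretch before Hspe1 (chr1:55088053-55088082, plus strand, bases 95 to 66 before the start) holds 3 overlapping elements. That before Hspa1b (chr17:34959239-34959438, minus strand, bases 200 to 1) holds 1, and that before Nle1, shown because it was the called gene, (chr11:82908415-82908545, minus strand, bases 150 to 20) holds none.
Hspe1: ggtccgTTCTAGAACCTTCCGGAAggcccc
Hspa1b: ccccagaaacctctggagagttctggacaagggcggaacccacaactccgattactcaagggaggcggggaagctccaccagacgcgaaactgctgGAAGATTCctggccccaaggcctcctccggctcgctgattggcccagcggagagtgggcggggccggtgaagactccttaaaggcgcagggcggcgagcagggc
Nle1: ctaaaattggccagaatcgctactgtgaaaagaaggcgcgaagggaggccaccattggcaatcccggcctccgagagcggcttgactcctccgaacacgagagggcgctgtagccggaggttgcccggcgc

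An element of 3 alternating units of GAA and TTC, each pair separated by NN, was found on either strand in 198 of 32851 promoters of the table (0.603%). The element of 2 units, chosen after that search was seen and contained in the element of 3, was found in 4946 (15.1%). Among the 10 of the 12 genes with a promoter in the table, 2 (Hspd1 and Hsph1) held the longer element. The shorter element was in 4 of these 10, and in 2 of the 9 of the 12 negative genes that have a promoter in the table, none of which held the longer one. By list it was in 3 of 14 HSP70 and HSP110 genes, 4 of 10 HSP90 genes, 4 of 13 DNAJ genes, 5 of 6 small heat shock proteins, 3 of 10 mitochondrial chaperones and 3 of 12 TRiC and prefoldin genes. Among the mitochondrial chaperones, Hspd1 and Hspe1 hold the same elements and are both counted. A match is a description of these letters only, and no match says only that they are not in the 250 bases before or 50 bases after the start.

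Among HSP70 and HSP110 chaperones, which fold nascent and damaged proteins, 6 of 17 had a positive and 2 a negative interaction at an unadjusted p under 0.05, where 2.69% and 2.62% of all genes did. The heat-inducible HSP70 gene Hspa1b was called for IR in both genotypes. Its FPKM was 832, 390.0, 437, 63.3 and 259 in WT-IR hearts, from 9.81 to 59.4 in WT-Con. In fat-1 hearts it was 833, 937, 719, 706 and 998 after IR, from 5.11 to 27.3 in the controls. WT-IR 1 was above 2 of the Fat1-IR hearts, and WT-IR 4 was close to the highest WT-Con heart. The response was 3.76 in WT and 5.74 in fat-1 hearts, with an interaction of 1.98 (SE 0.81, limma, unadjusted p = 0.0248). It was 2.24 without the 3 hearts, and 1.17 (limma, unadjusted p = 0.116) without WT-IR 4 and WT-IR 5. The near-identical neighbour Hspa1a gave 1.91, and reads of the pair may be shared between them, so they count as a single observation and the 6 positive genes as 5.

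Hsph1 (chr5:149614287-149636376, minus strand), an HSP110 that resets HSP70 and dissolves aggregates, did not overlap between the genotypes after IR. It was 77.5, 45.7, 46.2, 13.8 and 26.7 FPKM in WT-IR and 119, 110.1, 82.6, 83 and 111 FPKM in Fat1-IR hearts, against 6.26 to 11.8 FPKM in the WT and 5.67 to 8.61 FPKM in the fat-1 controls. It rose in both genotypes, by 2.11 and 3.75 on the log2 scale, and the interaction was 1.65 (SE 0.44, limma, unadjusted p = 0.00137, adjusted p = 0.831). All 5 Fat1-IR hearts were above all WT-IR hearts, as groups after IR did in 1.59% of the genes tested. The groups of a genotype did not overlap between control and IR in 4.76% of genes for WT and 6.68% for fat-1 hearts, and did not overlap for Hsph1 in either. Without WT-IR 4 and WT-IR 5 it was 1.05, and without the 3 other hearts 1.53. The testis-type Hspa1l and the constitutive Hspa8, which has processed copies, gave 1.27 and 0.70. Their responses in WT hearts were -0.08 and -0.11. Hspa12a and Hspa12b, distant members of the family, had negative interactions of -0.63 and -0.69. Hspa12b, expressed in endothelium, rose in WT hearts, by 1.1, and had a response of 0.41 in fat-1 hearts.

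HSP90 and its co-chaperones mature kinases and steroid receptors. Of 13, 9 had a positive interaction at an unadjusted p under 0.05 and none a negative, where 2.69% and 2.62% of all genes did. All 13 point estimates were positive, as were 9815 of all 18219, and their median was 0.56, beside 0.04 for all genes. Hsp90aa1, the heat-inducible HSP90, was 298, 172, 185, 68.4 and 107 FPKM in WT-IR and 494, 362, 282, 300.3 and 386 FPKM in Fat1-IR hearts. WT-IR 1 was above the lowest Fat1-IR heart, and WT-IR 4 was within the range of WT-Con (53.1 to 97.5). The interaction of Hsp90aa1 was 1.46 (SE 0.41, limma, unadjusted p = 0.0022), and the responses were 1.17 and 2.63. The constitutive Hsp90ab1 was 374 to 493 FPKM in WT-IR and 512 to 1026 FPKM in Fat1-IR hearts, with an interaction of 0.60.

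The other members of the HSP90 list had smaller values that depended more on the hearts that stand apart. Stip1, which links HSP70 to HSP90, gave 0.61, Chordc1 gave 0.76 and Ahsa1, an activator of the HSP90 ATPase, gave 0.67. Ptges3, Ppid and Cacybp, also co-chaperones, gave 0.61, 0.48 and 0.47. Without Fat1-IR 1, Fat1-IR 4 and WT-Con 5 these were 0.36, 0.48, 0.32, 0.23, 0.17 and 0.18, and the median of the list was 0.23. By contrast, the value of Hsp90aa1 was 1.46 without these hearts and 0.93 without WT-IR 4 and WT-IR 5. In each of these fits 6 of the 13 genes were at an unadjusted p under 0.05. Ahsa2, a homolog of Ahsa1 outside the list, was 4.62, 4.74, 5.2, 5.67 and 4.41 FPKM in WT-IR and 8.77, 8.5, 6.16, 7.9 and 7.24 FPKM in Fat1-IR hearts, without overlap, and its interaction was 0.62 (limma, unadjusted p = 0.000797). It overlaps Usp34 on the opposite strand by 2679 bp.

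Of 15 DNAJ co-chaperones, which hand substrates to HSP70, 2 had a positive and none a negative interaction at an unadjusted p under 0.05. They were Dnajb1 and Dnaja1, the heat-inducible members, and 2.69% of all genes were positive and 2.62% negative at that level. Dnajb1 was 160.2, 85.8, 84.3, 17.7 and 59.7 FPKM in WT-IR and 251, 218, 182, 172 and 241 FPKM in Fat1-IR hearts, so the groups did not overlap. It was 7.76 to 31.3 in WT-Con and 5.94 to 15.1 in Fat1-Con. The gene rose in both genotypes, and the interaction was 2.06 (SE 0.63, limma, unadjusted p = 0.00384), 2.19 without the 3 hearts and 1.39 without WT-IR 4 and WT-IR 5. Dnaja1 was 54.2, 31.1, 37.9, 11.8 and 21 FPKM in WT-IR and 95.8, 70.6, 57.1, 57.6 and 78.1 FPKM in Fat1-IR hearts, again without overlap. Its interaction was 1.51 (SE 0.40), and that of the annotated processed pseudogene Gm12390 beside it was 2.09. The sources used here do not give how reads shared between them were counted. The median of the DNAJ list was 0.23 with all hearts and 0.00 without the 3 hearts.

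Small heat shock proteins bind unfolding proteins, and Bag3 ties them to HSP70 in the turnover of damaged Z-disc proteins. Bag3 and Hspb1 were the 2 of 8 members at an unadjusted p under 0.05, both positive, where 2.69% of all genes were. Bag3 was 73.8, 88, 111, 93.3 and 129 FPKM in WT-Con and 151, 117, 126, 81.3 and 80.8 FPKM in WT-IR hearts, which overlapped. It was 82.5, 79.1, 76.3, 84.7 and 91 FPKM in Fat1-Con and 291, 204, 154, 162 and 211 FPKM in Fat1-IR hearts, and the Fat1-IR hearts overlapped neither the Fat1-Con nor the WT-IR hearts. The interaction of Bag3 was 1.12 (SE 0.27, limma, unadjusted p = 0.000549), 0.93 without the 3 hearts and 0.84 without WT-IR 4 and WT-IR 5. Hspb1 was 339.6 to 814 FPKM in WT-IR and 663 to 1353 FPKM in Fat1-IR hearts, and its interaction was 1.28.

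In mitochondria, HSP60 (Hspd1) and its lid HSP10 (Hspe1) form the chaperonin. These were the 2 of 13 mitochondrial chaperones and proteases at an unadjusted p under 0.05, both positive, where 2.69% of all genes were. The 2 genes are read in opposite directions from starts 111 bp apart, and their annotations overlap by 112 bp. Hspd1 was 210.2, 168, 179, 183 and 148 FPKM in WT-IR and 422, 264, 236, 244 and 261 FPKM in Fat1-IR hearts. Fat1-IR 1 was far above the other 4, which were themselves above all WT-IR hearts. The interaction of Hspd1 was 0.76 (SE 0.19, limma, unadjusted p = 0.000862) with all hearts and 0.58 (limma, unadjusted p = 0.00019) without the 3 hearts. Hspe1 gave 1.22, and 0.61 without the 3 hearts. It was 213 FPKM in WT-Con 5 and at most 51.2 FPKM in the other WT-Con hearts, and 197, 123, 103, 124 and 126 FPKM in Fat1-IR hearts.

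The other chaperone groups had no such members. None of 14 genes of the TRiC chaperonin and prefoldin, which fold actin and tubulin, was at an unadjusted p under 0.05 with all hearts. Nor was any of 18 ER chaperones, or of 4 genes on the list of heat shock factors, which includes Hsbp1. Of all 18219 genes tested, 9815 had a positive point estimate with all hearts. All 14 TRiC and prefoldin genes had positive point estimates, with a median of 0.36, as did all 31 proteasome genes (median 0.37) and all 50 nuclear genes of oxidative phosphorylation (median 0.43). In these groups Psmd8, a proteasome lid subunit, and Sdha, a subunit of complex II, were at an unadjusted p under 0.05. Without Fat1-IR 1, Fat1-IR 4 and WT-Con 5 these medians were 0.01, 0.01 and 0.06. For 13 transcripts of the mitochondrial genome the median was -0.72 with all hearts and -0.04 without the 3. Cytosolic ribosomal proteins, many of which have processed copies, went from 0.41 to -0.09. The medians of the TRiC, proteasome, oxidative phosphorylation, mitochondrial genome and ribosomal protein groups were thus within 0.1 of 0 without the 3 hearts. That of the heat shock factor list was -0.14. The median of the HSP90 list fell from 0.56 to 0.23, that of the small heat shock proteins from 0.46 to 0.21, that of the HSP70 list from 0.34 to 0.04 and that of the mitochondrial chaperones from 0.26 to 0.10, beside -0.07 for all genes. Hspa1b, Hsph1, Dnajb1, Dnaja1 and Hsp90aa1, picked here for their values, had 1.46 or more without the 3 hearts, and 0.93 or more without WT-IR 4 and WT-IR 5, where Hspa1b went from 1.98 to 1.17.

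**Figure D4:**
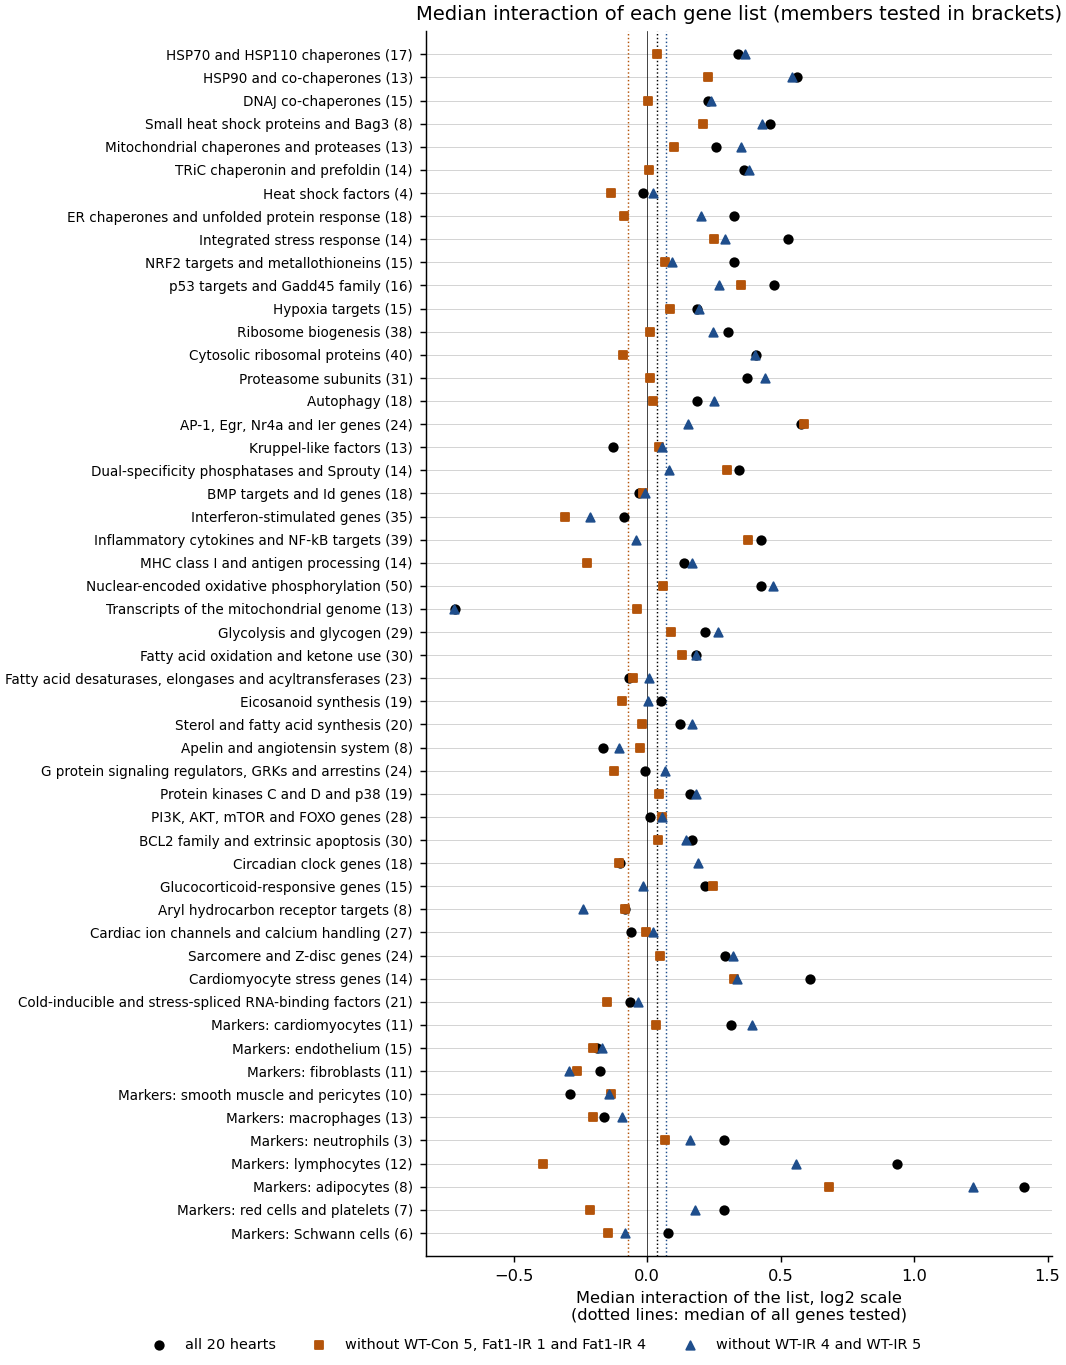
Median interaction (x axis, log2 scale) of each of 52 gene lists (y axis, with the number of members tested), with all 20 hearts (circles), without Fat1-IR 1, Fat1-IR 4 and WT-Con 5 (squares) and without WT-IR 4 and WT-IR 5 (triangles). Dotted lines give the median of all genes in each fit. TRiC, proteasome and oxidative phosphorylation lists move to between 0.01 and 0.06 without the 3 hearts, and inflammatory and AP-1 lists move to -0.04 and 0.15 without the WT-IR pair.

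Further genes with a positive interaction were outside the chaperone lists. Fam84a (chr12:14146830-14152054, minus strand), also called Lratd1, was 1.01, 0.864, 0.751, 0.414 and 0.508 FPKM in WT-IR and 2.41, 2.88, 2.19, 1.71 and 3.19 FPKM in Fat1-IR hearts, above 0.328 to 0.853 in Fat1-Con. It rose in fat-1 hearts, by 2.20, and its response in WT hearts was 0.59. The interaction was 1.61 (SE 0.37, limma, unadjusted p = 0.000369, adjusted p = 0.788), and 1.91 without the 3 hearts. After IR all 5 fat-1 hearts exceeded all WT hearts.

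Taf5, a subunit of the general transcription factor TFIID, and Tent5a, a poly(A) polymerase of the cytoplasm, had positive interactions. Among controls, Taf5 was 1.28, 1.18, 1.42, 1.28 and 1.39 FPKM in WT and 0.972, 0.941, 1.14, 1.01 and 1.08 FPKM in fat-1 hearts, where every heart was lower. It was 1.96, 1.69, 1.33, 1.38 and 1.68 FPKM in Fat1-IR hearts, overlapping the highest WT-IR heart, and the interaction was 0.73 (limma, unadjusted p = 0.000718). Tent5a was 9.15, 7.84, 7.73, 5.77 and 4.95 FPKM in WT-IR and 15.9, 14.2, 11.1, 12.7 and 12.3 FPKM in Fat1-IR hearts. The responses of Tent5a were -0.41 in WT and 0.41 in fat-1 hearts, neither of them called, with an interaction of 0.82. Ubald1 gave 0.59, at 2.87 to 4.18 FPKM in WT-IR and 4.47 to 5.41 FPKM in Fat1-IR hearts. Nudt14, a hydrolase of UDP-glucose, gave 1.30, and 0.82 without the 3 hearts. Of its hearts, Fat1-IR 1 had 2.43 FPKM and WT-Con 5 had 4.15 FPKM.

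A negative interaction means a smaller rise, a larger fall or an opposite response in fat-1 hearts. The 12 with the smallest p for a negative interaction, among protein-coding genes that averaged 1 FPKM or more, ranged from -1.06 to -0.50. Their adjusted p-values in limma were 0.805 to 0.831, so none was called. All 12 kept a negative sign and an unadjusted p under 0.05 without the 3 hearts and without WT-IR 4 and WT-IR 5, and so did the 12 positive genes with theirs. These genes were picked for small p-values on the same hearts.

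Pcsk6 (chr7:65861734-66050386, plus strand), a proprotein convertase that activates the natriuretic peptide protease corin, was 8.06, 9.67, 9.39, 10.1 and 7.98 FPKM in WT-Con and 14.1, 13.3, 14.9, 13.8 and 15.7 FPKM in WT-IR hearts. It was 9.81, 11.2, 10.6, 9.64 and 9.92 FPKM in Fat1-Con and 10.3, 11.9, 12.2, 8.97 and 12 FPKM in Fat1-IR hearts. It rose in WT hearts without overlap, by 0.67, while its fat-1 groups overlapped with a difference of 0.11. The interaction was -0.56 (SE 0.14, limma, unadjusted p = 0.000833) and -0.39 without the 3 hearts.

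Cav1 (chr6:17306335-17341452, plus strand), the coat protein of caveolae in endothelium and smooth muscle, was 70.2, 74.6, 69.9, 79.8 and 94.8 FPKM in WT-IR and 50.2, 59.5, 58.8, 51 and 66 FPKM in Fat1-IR hearts. In controls it was 48.5 to 65.7 FPKM with the WT and 59.6 to 72.7 FPKM with the fat-1 genotype. Every WT-IR heart was above every Fat1-IR heart, while the control groups overlapped. The responses of 0.39 and -0.24 were not called, although the WT groups did not overlap. Its interaction was -0.63 (limma, unadjusted p = 0.00103) and -0.44 without the 3 hearts.

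Gpr22 (chr12:31706867-31713947, minus strand), an orphan receptor expressed in heart and brain, was 6.18, 4.91, 6.4, 8.34 and 7.76 FPKM in WT-IR and 2.55, 3.33, 3.24, 3.3 and 4.51 FPKM in Fat1-IR hearts. These did not overlap, and Fat1-IR against WT-IR was -0.97 (limma adjusted p = 0.0477), in a comparison where 0.104% of genes were called. The WT and fat-1 control means were 4.25 ± 1.15 and 4.03 ± 0.62 FPKM (SD, n = 5). The interaction of Gpr22 was -0.92 (SE 0.27, limma, unadjusted p = 0.00245). It lies inside Cog5 on the opposite strand, and Cog5 itself gave -0.27.

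Other members of this set rose in WT hearts and had lower values in fat-1 hearts. Fmnl3, a formin that builds actin filaments, had responses of 0.86 in WT and 0.36 in fat-1 hearts, and Stab1, a scavenger receptor of macrophages and endothelium, had 0.83 and 0.29. For Sfrp1, a secreted inhibitor of Wnt signals, they were 0.67 and 0.15, and for Dchs1, a large cadherin, 0.85 and 0.02. All 4 were called upward in WT hearts and none in fat-1 hearts, where 2.01% and 1.30% of all genes were. The differences were -0.50, -0.54, -0.52 and -0.84. Choosing genes by a negative interaction favours a high response in WT hearts. Stab1 was 4.96 to 6.31 FPKM in WT-IR and 3.66 to 4.58 FPKM in Fat1-IR hearts, and Sfrp1 was 3.15 to 3.83 and 2.32 to 2.85 FPKM. For these 2 genes the groups did not overlap after IR.

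Slc18b1, a vesicular transporter of polyamines, Pde1a, a phosphodiesterase activated by calcium, and Nr2c1, an orphan nuclear receptor, had responses of opposite sign. For Slc18b1 they were 0.39 and -0.62, for Pde1a 0.27 and -0.39, and for Nr2c1 0.16 and -0.44. None of these was called. 1700030K09Rik was called downward in fat-1 hearts (-0.84), with 1.11 to 1.84 FPKM in the controls and 0.623 to 0.922 FPKM after IR, and had a WT response of 0.19. Gm17334 gave -1.06, and all of its 907 bp lie within Irf1 on the opposite strand, so its reads may belong to Irf1.

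**Figure D5:**
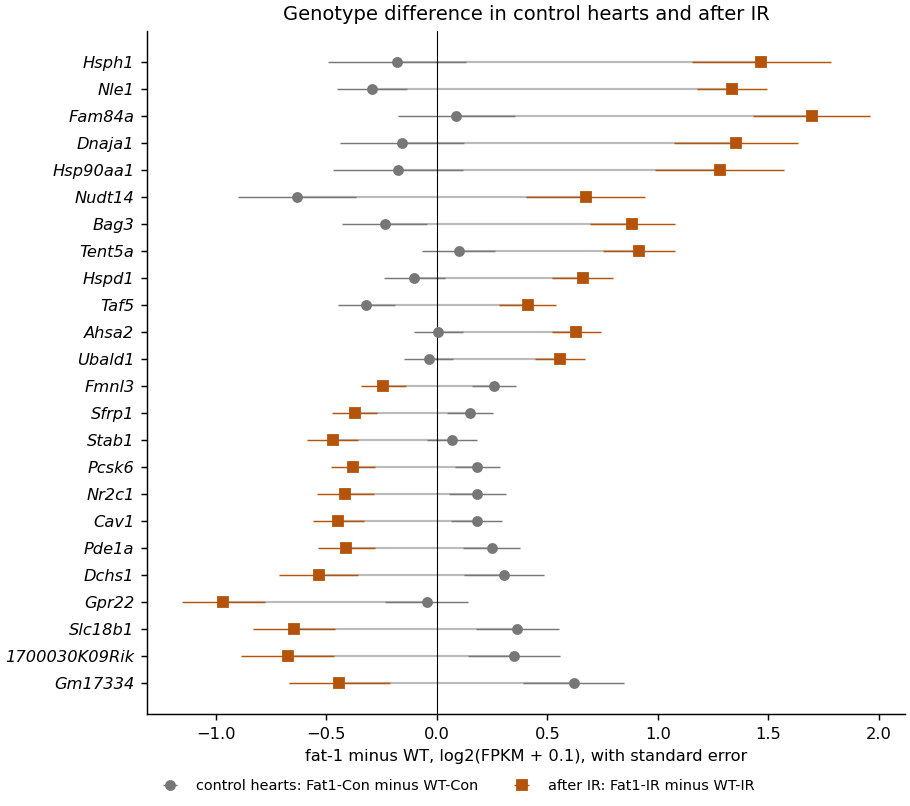
Difference of fat-1 from WT hearts (x axis, log2(FPKM + 0.1), with standard errors) in control hearts (grey circles) and after IR (orange squares) for the 12 genes with the smallest p for a positive and the 12 for a negative interaction (y axis). The squares lie above 0 for all 12 positive genes and below 0 for all 12 negative genes, and the circles lie nearer to 0 for most of them.

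For the 24 genes, the difference between genotypes after IR and that between controls stand side by side. For Nle1 they were 1.34 and -0.29, for Hsph1 1.47 and -0.18, for Bag3 0.88 and -0.24, and for Cav1 -0.45 and 0.18. After IR the genotypes did not overlap in 9 of the 12 positive and 7 of the 12 negative genes, where 1.59% of all genes had no overlap. In control hearts they did not overlap in 1 of 12 and 1 of 12, where 1.33% had none. The choice of genes by the interaction favours such values. Over all 968 genes, the difference between genotypes was larger after IR in 558, and its sign was opposite in the control hearts in 891. Over all 18219 genes tested these counts were 8378 and 9223, and choosing the 968 by the interaction favours opposite signs.

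Aplnr (chr2:85136225-85139923, plus strand), the apelin receptor, was named because the study turns on it. Its FPKM was 0.884, 1.35, 1.13, 0.904 and 1.97 in WT-Con and 2.45, 6.48, 5.1, 8.98 and 8.71 in WT-IR hearts, which did not overlap. The fat-1 controls had 2.6, 2.26, 1.82, 0.437 and 2.0 FPKM and the fat-1 hearts after IR 2.19, 1.7, 3.83, 2.45 and 2.22 FPKM, which did. Aplnr rose in WT hearts, by 2.18 (SE 0.39, limma adjusted p = 0.00272), and had a response of 0.56 (SE 0.39) in fat-1 hearts. The interaction was -1.62 (SE 0.55, limma, unadjusted p = 0.0085, adjusted p = 0.831), so the difference did not pass the test over all genes. It was -1.76 without the 3 hearts, -2.03 (limma adjusted p = 0.510) without Fat1-Con 4, the heart with the lowest Aplnr, and -1.22 (limma, unadjusted p = 0.0518) without WT-IR 4 and WT-IR 5, the 2 hearts with the highest Aplnr. These are the hearts with the lowest heat-inducible chaperones of their group, and the part of any difference between these hearts and the others was not tested. WT-IR 1 was within the range of the Fat1-IR hearts. No other of the 8 tested genes of the apelin and angiotensin system was at an unadjusted p under 0.05.

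Among regulators of G protein signals, 2 of 24 were at an unadjusted p under 0.05, both negative, where 2.62% of all genes were. Arrb1, which encodes β-arrestin-1 and uncouples activated receptors, had responses of 0.36 and -0.25 and an interaction of -0.61. For Rgs3, which turns G proteins off, the interaction was -0.40. Of 19 genes on the list of protein kinases C and D and the p38 pathway, Prkcd, Prkd2 and Mapkapk2 were positive at 0.43, 0.46 and 0.27. They were the only 3 at an unadjusted p under 0.05, where 2.69% of all genes were positive. At that level 2 were positive and 1 negative without the 3 hearts, and 1 and none without WT-IR 4 and WT-IR 5. With scaling to nuclear-encoded fragments none was positive and 1 negative. Prkd2 fell in both genotypes, by 1.56 in WT and by 1.1 in fat-1 hearts on the log2 scale. None of 28 genes of PI3K, AKT, mTOR and FOXO was at an unadjusted p under 0.05.

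Immediate-early genes are induced within minutes of a stimulus, and many encode transcription factors. Of 24 genes of the AP-1, Egr, Nr4a and Ier families, 5 had a positive interaction at an unadjusted p under 0.05 (Jund, Egr1, Arc, Ier2 and Ier5) and none a negative. At that level 2.69% of all genes were positive and 2.62% negative. Egr1 was 275, 213, 219, 48.6 and 90 FPKM in WT-IR and 362, 302, 257, 193 and 279.8 FPKM in Fat1-IR hearts. WT-IR 4 and WT-IR 5 were again the lowest of their group, below the range of WT-Con (101 to 201), and the other 3 lay within the range of Fat1-IR. The median of the list was 0.57 with all hearts, 0.59 without Fat1-IR 1, Fat1-IR 4 and WT-Con 5, and 0.15 without WT-IR 4 and WT-IR 5, when none was positive and 1 negative at that level. The 5 positive genes became 1 without the 3 hearts and 1 with scaling to nuclear-encoded fragments.

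Of 39 inflammatory cytokines and targets of NF-kB, 6 had a positive interaction at an unadjusted p under 0.05, where 2.69% of all genes did. These were Nfkb2, Nfkbie, Relb, Ccl5, Csf1 and Acod1. All 6 were called downward in WT hearts, and 2 of them, Csf1 and Acod1, also in fat-1 hearts. Of all genes, 1.19% were called downward in WT and 0.703% in fat-1 hearts. Csf1, the growth factor of macrophages, was 136 to 193 FPKM in WT-Con and 55.6, 51.3, 57.6, 24.1 and 32.1 FPKM in WT-IR hearts. It was 138 to 186 FPKM in Fat1-Con and 53.3, 72.3, 53.4, 68.2 and 52.2 FPKM in Fat1-IR hearts, so it was lower after IR in every heart of each genotype. For Csf1, as for Relb, WT-IR 4 and WT-IR 5 were the lowest of their group. Relb, a subunit of NF-kB, was 8.45, 7.95, 8.9, 3.38 and 3.19 FPKM in WT-IR and 11.9, 9.28, 7.27, 7.91 and 7.35 FPKM in Fat1-IR hearts. The median of the 39 interactions was 0.43, and -0.04 without WT-IR 4 and WT-IR 5. None of the 39 was positive at that level without that pair, none without the 3 hearts (median 0.38), and none with scaling to nuclear-encoded fragments. Of 35 interferon-stimulated genes, 3 were at an unadjusted p under 0.05 and all were negative, where 2.62% of all genes were. These were Oas2 (-0.70), Ifi44 (-0.77) and Stat2 (-0.36). The list was called downward for 16 genes in WT and 19 in fat-1 hearts, where 1.19% and 0.703% of all genes were. Its median interaction was -0.09. The median was -0.31 without the 3 hearts, with 6 genes negative at that level, and -0.22 without WT-IR 4 and WT-IR 5.

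Of 14 stress genes of cardiomyocytes, 5 had a positive interaction at an unadjusted p under 0.05 and none a negative. They were Ankrd1, Ankrd2, Ccn2, Hbegf and Tnfrsf12a, which respond to stretch or growth signals, and the median of the list was 0.61. Of all genes, 2.69% were positive and 2.62% negative at that level. Ankrd1 was 554 to 990.3 FPKM in WT-Con and 372, 440.3, 334, 575 and 271 FPKM in WT-IR hearts. It was 646 to 772 FPKM in Fat1-Con and 647, 575, 472, 617 and 590.2 FPKM in Fat1-IR hearts, and the groups overlapped in each genotype. The gene fell in WT hearts, by 0.93 on the log2 scale, with a response of -0.31 in fat-1 hearts and an interaction of 0.62 (limma, unadjusted p = 0.0269). It was 0.42 (limma, unadjusted p = 0.121) without the 3 hearts, and the median of the list was then 0.33, with 1 gene positive at that level. Nuclear scaling also left 1 gene of the list at that level, and without WT-IR 4 and WT-IR 5 there were 2, with a median of 0.34.

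In the integrated stress response, which slows translation when amino acids or protein folding fail, Trib3 and Chac1 were the 2 of 14 genes at an unadjusted p under 0.05. Both were positive, where 2.69% of all genes were at that level. Both fell in WT hearts and neither was called in fat-1 hearts. None of the 14 was at that level without the 3 hearts. Chac1, which degrades glutathione, was 3.84 to 7.17 FPKM in WT-Con and 1.94 to 3.21 FPKM in WT-IR hearts, without overlap, and 3.56 to 6.51 and 2.12 to 3.87 FPKM in the fat-1 groups. Of 30 genes of the BCL2 family and extrinsic apoptosis, 4 were positive at that level, where 2.69% of all genes were. These were Dedd2 (0.60), Bbc3 (0.65), Tnfrsf12a (0.84) and Bcl2a1d (1.14). Bbc3 and Dedd2 promote apoptosis and Bcl2a1d opposes it, although reads of Bcl2a1d may be shared with its near-identical copies. Without the 3 hearts 1 gene of this list was positive and 2 were negative at that level. Id1, a target of BMP signals that rose in both genotypes, had the smaller response in fat-1 hearts. It was 14.9, 14.3, 20.7, 15 and 25 FPKM in WT-IR and 11.8, 10.7, 5.59, 5.93 and 7.36 FPKM in Fat1-IR hearts, without overlap, with an interaction of -0.83 (limma, unadjusted p = 0.026).

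The transgene acts on polyunsaturated fatty acids, so genes that make and use them were examined. None of 23 desaturases, elongases and acyltransferases was at an unadjusted p under 0.05, and their median interaction was -0.07. Of 19 genes of eicosanoid synthesis, 2 were positive and 2 negative at that level with all hearts, beside 2.69% and 2.62% of all genes tested. Without the 3 hearts 1 was positive and none negative, and the same counts were found without WT-IR 4 and WT-IR 5. With TPM scaling 3 were positive and none negative. Ptges, which makes prostaglandin E2, and Hpgd, which degrades prostaglandins, gave 1.29 and 0.56, and the lipoxygenases Alox5 and Alox12 gave -0.53 and -0.63. Ptges was 0.622, 0.663, 0.695, 0.441 and 0.318 FPKM in WT-IR and 1.56, 0.58, 0.496, 1.28 and 1.78 FPKM in Fat1-IR hearts. Of 30 genes of fatty acid oxidation and ketone use, Bdh1, which oxidizes ketone bodies, gave 0.82 and Cpt1a, which admits long-chain fatty acids to mitochondria, gave -0.74. These were the 2 at that level, 6.67% of the list beside 5.31% of all genes tested. At that level 1 gene was positive without the 3 hearts, 3 without WT-IR 4 and WT-IR 5 and 1 with TPM scaling. None was negative in these fits. None of 20 genes of sterol and fatty acid synthesis was at that level.

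Some markers of cells other than cardiomyocytes were also at an unadjusted p under 0.05. Of 8 adipocyte markers tested, Adipoq, Cfd and Cidec had a positive interaction at an unadjusted p under 0.05, where 2.69% of all genes did. The median of the list was 1.41 with all hearts and 0.68 without the 3, when none was at that level. The summed FPKM of the 9 adipocyte markers measured was 21.6 to 154.4 in Fat1-IR and 18.4 to 21.3 in Fat1-Con, 23.5 to 36.5 in WT-IR and 20.5 to 52.4 in WT-Con. Adipoq, the hormone adiponectin, was 10.3, 0.587, 0.353, 1.61 and 3.62 FPKM in Fat1-IR hearts, of which Fat1-IR 1 was the highest, and 0.264 to 1.42 FPKM in WT-IR hearts. None of 12 lymphocyte markers was at an unadjusted p under 0.05, but their median of 0.94 became -0.39 without the 3 hearts. All 5 markers of vessel wall and stroma at that level were negative, while 2.69% of all genes were positive and 2.62% negative. Of the markers tested, 3 endothelial, 2 fibroblast and 4 smooth muscle and pericyte markers had positive point estimates. Pdgfra and Dcn were the 2 of 11 fibroblast markers at that level, at -0.82 and -0.34. Kcnj8 and Pdgfrb were the 2 of 10 markers of smooth muscle and pericytes, at -0.40 and -0.42, and Pecam1 was the only 1 of 15 endothelial markers, at -0.37. In the order of fibroblasts, smooth muscle and pericytes, and endothelium, the negative counts were 1, 0 and 0 with TPM scaling. They were 4, 3 and 4 with scaling to nuclear-encoded fragments, 4, 1 and 3 without the 3 hearts, and 2, 0 and 0 without WT-IR 4 and WT-IR 5. The summed FPKM of the endothelial markers was 439 to 537 in WT-IR and 373 to 515 in Fat1-IR, and that of the fibroblast markers 606 to 782 and 496 to 762. No marker of endothelium, fibroblasts or smooth muscle was at 0 in all hearts of a group, while 1 adipocyte marker was at 0 in Fat1-Con. Cav1, Stab1, Hspa12b and Aplnr are also expressed in endothelium, and the part of these cells in their values was not tested.

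In all 52 lists, 926 different genes were tested, and 86 of them (9.29%) were at an unadjusted p under 0.05, against 5.31% of all genes. Of the 86, 67 were positive and 19 negative. The lists were put together with earlier results of these hearts known, so the share is a description.

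Among genes called for IR in either genotype, those with the smallest interaction p and responses of opposite sign were mostly of low level. Prss46, a serine protease, was 0.331, 0.0781, 0.401, 0.302 and 0.238 FPKM in WT-Con hearts and 0.193, 0.237, 0, 0.368 and 0 FPKM after IR. In fat-1 hearts it was 0, 0.0414, 0.0419, 0 and 0.0682 FPKM in controls and 0.629, 0.49, 0.507, 0.384 and 0.457 FPKM after IR. The fat-1 groups did not overlap, and the interaction was 2.90 (SE 0.56, limma, unadjusted p = 4.5e-05, adjusted p = 0.276). At the greatest depth a single fragment in 2 kb of exon is worth 0.0192 FPKM, so these are few fragments. Angptl8, an inhibitor of lipoprotein lipase, was 0.0602, 0.246, 0.351, 0.801 and 0.603 FPKM in WT-IR and 0.0611, 0, 0.282, 0 and 0 FPKM in Fat1-IR hearts, listed at 0 in 3 of the latter, with an interaction of -2.90.

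Zbtb8a, a zinc finger gene, was 0.213, 0.158, 0.407, 0.292 and 0.165 FPKM in WT-Con and 0.718, 0.664, 0.697, 0.875 and 0.651 FPKM in WT-IR hearts. It was 0.683, 0.745, 0.632, 0.275 and 0.593 FPKM in Fat1-Con and 0.524, 0.524, 0.42, 0.468 and 0.481 FPKM in Fat1-IR hearts. It rose in WT hearts, where the groups did not overlap, and the interaction was -1.47 (SE 0.31, limma, unadjusted p = 0.000139, adjusted p = 0.60). Fat1-Con 4 was the lowest of its group, and without this heart the adjusted p of Zbtb8a in limma was 0.0469, so 2 genes were then called. Zbtb8a overlaps Zbtb8os on the opposite strand by 920 bp. Gm4032, 4930513N20Rik and Gm10435 also had responses of opposite sign, with interactions of 2.43, 1.92 and -1.63. Gm5796, Gm42937 and Gm43151 had smaller responses in fat-1 hearts, with 1.69, -1.80 and -2.29. The annotation gives no function for these 6 genes.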

How the data were processed

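RNA of 20 ventricles, 5 in each of 4 groups, was sequenced once per heart. The deposited values are FPKM per gene. The submitters' processing notes name HISAT2, featureCounts and the mm10 build, and the study's methods state that the authors mapped cleaned reads, without naming a tool. The sources used here give neither versions nor the use of strand. For 30746 of the 31217 genes found in GENCODE M21 (98.5%), FPKM times exon length gave whole fragments within 0.02 for values under 1000, while 657 IDs had no match there. Depth was 15626847 to 25993336 fragments, and 1 fragment in 2 kb of exon is 0.0192 to 0.0320 FPKM.

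Values were tested as log2(FPKM + 0.1), which understates changes of low genes, for genes averaging 0.1 FPKM or more. A single model with 4 group means and 16 residual degrees of freedom was fitted in limma 3.58.1 (R 4.3.3) with a variance trend, and contrasts gave the responses and the interaction. The two-sided p-values were adjusted by Benjamini-Hochberg over 18219 genes, and genes passing 0.05 with more than 1.5-fold were called. Tables and plots were made with Python 3.11.15, pandas 2.3.3, numpy 2.4.6 and matplotlib 3.10.9. The fit was also run on simulated libraries, in which genes were drawn independently and no heart stood apart. No result here rests on that run.

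Genes qualified for naming if called, or if among the 12 smallest p-values per direction (protein-coding, mean of at least 1 FPKM). They also qualified if among the 6 smallest in a class and called for IR, or if among the 4 smallest of a list. Aplnr is named as well. Not every gene that qualified by its list is printed. With their values known, 13 further list members at an unadjusted p under 0.05 and some neighbouring genes were added. The 52 lists hold 963 different genes, of which 926 were tested. The comparison and the lists were chosen with earlier results of these data known. The 3 hearts and the WT-IR pair that are left out were also chosen from known values.

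Replicate numbers did not pair the hearts, since over 30 pairs of same-numbered hearts the correlation of deviations from the group means was -0.14 to 0.06. Alternatives covered the pseudocount, the filter, scaling, weights, fragment counts in limma voom, a replicate block and leaving out hearts.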

Additional observations from a re-analysis of the deposited data

Results flagged for a closer look

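Of 136 groups of 5 hearts examined, 7 held a heart far from the other 4, where chance gives about 1 in 20. Hspd1 was 422 FPKM in Fat1-IR 1 and 236 to 264 FPKM in the others. Nudt14 was 4.15 FPKM in WT-Con 5 against 1.14 to 1.59 FPKM. Gm17334 was 3.42 FPKM in Fat1-Con 2 against 2.0 to 2.3 FPKM. Gm42937 was 0.0851 FPKM in WT-Con 5 against 0.598 to 0.856 FPKM. Gm4032 was 0.235 FPKM in WT-IR 2 against 0.0548 to 0.0577 FPKM. In Fat1-Con 4, Zbtb8a was 0.275 FPKM against 0.593 to 0.745 FPKM, and Aplnr was 0.437 FPKM against 1.82 to 2.60 FPKM. The response of Nle1 to IR differed between the genotypes by 1.63 on the log2 scale, by the interaction term of the model.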

How the results depend on the processing

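Without any 1 heart the number of genes called positive was 1 to 1 and the number called negative 0 to 1, the latter Zbtb8a without Fat1-Con 4. No gene was called positive with FPKM scaled to nuclear-encoded fragments (0), without Fat1-IR 1, Fat1-IR 4 and WT-Con 5 (0) or without WT-IR 4 and WT-IR 5 (0). With the replicate number as a block, 0 genes were called and Nle1 had an adjusted p of 0.130 in limma, although the numbers do not pair the hearts and 1 of 20 hearts was closest to its own number.

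The 491 positive genes at an unadjusted p under 0.05 became 291 with a mean of at least 1 FPKM, 236 with nuclear scaling and 316 without the 3 hearts. The 477 negative became 257 at that mean, 224 with TPM scaling, 1180 with nuclear scaling, 905 with array weights, 1049 without the 3 hearts and 286 without the WT-IR pair. Larger responses (104) became 181 with array weights, 171 without the 3 hearts and 66 without the pair. Smaller responses (195) became 112 with TPM, 359 with array weights and 127 without the pair, and opposite responses (669) became 1031 with no filter, 338 at the higher mean and 1023 with nuclear scaling. Leaving out 1 heart gave 322 to 656 positive, 363 to 666 negative, 86 to 139 larger, 114 to 256 smaller and 526 to 825 opposite.

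The share of positive genes was 50.7%, and 72.7% with TPM, 16.7% with nuclear scaling, 39.3% with array weights, 23.2% without the 3 hearts, 61.1% without the pair, 38.9% without Fat1-IR 1 and 39.8% without Fat1-IR 4. The median of all genes moved from 0.04 to 0.14 with TPM, -0.14 with nuclear scaling and -0.07 without the 3 hearts, and the cause was not tested. The genes that qualified for naming or were added were followed over the alternatives, printed or not. None of the 113 at an unadjusted p under 0.05 changed sign under any of 34 alternatives, while 19 of the 130 at larger p did under at least 1. A small p on the same hearts makes a change of sign unlikely beforehand, so these counts are a description only. On fragments recovered from FPKM, limma voom called 1 of 17624 genes. Low genes are limited by few fragments.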

Other observations

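Most other lists held few genes at an unadjusted p under 0.05, where 2.69% of all genes were positive and 2.62% negative. Of 29 genes of glycolysis and glycogen, 3 were positive and 1 negative at that level. That is 13.8% of the list, beside 5.31% of all genes. The counts were 1 and 1 without the 3 hearts, 2 and 1 without the WT-IR pair, and none and 1 with nuclear scaling. Of 14 MHC class I and antigen processing genes and 21 cold-inducible and stress-spliced RNA-binding factors, 1 each was positive at that level. All 16 targets of p53 had positive point estimates, as did 9815 of all 18219 genes, and their median was 0.47. Of the 16, Bbc3 alone reached that level. Of 15 hypoxia targets P4ha1, a collagen prolyl hydroxylase, was positive, and of 18 autophagy genes Sqstm1 and Gabarapl1, which recruit cargo, were positive. Klf5 was the only 1 of 13 Kruppel-like factors, and Dusp10, a phosphatase of stress kinases, the only 1 of 14 genes on its list, both positive. Of 18 BMP targets, Bambi, a decoy receptor, was positive and Id1 negative. Of 24 sarcomere and Z-disc genes Actn2 was positive, and none of 27 genes for ion channels and calcium handling was at that level. Nor was any of 18 clock genes, 15 glucocorticoid-responsive genes, 15 NRF2 targets, 8 aryl hydrocarbon receptor targets or 13 macrophage markers.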
